A study of Mus musculus with 21 samples.

Results

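The 12 mammary tumours of the series, out of 21 samples in all, were used to ask whether the difference between physically active and sedentary mice was itself different at week 18 from that at week 12. The tumours formed 4 groups of 3: sedentary at week 12, active at week 12, sedentary at week 18 and active at week 18. All 12 came from MMTV-PyMT mice, so the controls carried the tumour transgene too. In this model the promoter of the mouse mammary tumour virus drives the polyoma virus middle T oncoprotein in mammary epithelium, and the tumours are multifocal growths inside a fat pad that lies over the body wall. The labels do not say whether the weeks count age or time of activity, nor what form the activity took. They number the samples of a group as biological replicates and name no batch. All tumours were chosen by these labels, not by any measured value.

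The quantity throughout is a difference of effects. For each gene the effect of activity at a week is the mean of the active tumours minus the mean of the sedentary tumours, on the log2(normalized count + 1) scale. The difference of effects is the week 18 effect minus the week 12 effect. A value of 0 means the same effect at both weeks, a positive value means that active tumours stood higher relative to sedentary ones at week 18, and the scale understates changes of genes with low counts. Each effect is given as a description, and only their difference was tested. Bulk RNA was measured, so fewer cells of a type and less RNA per cell cannot be told apart.

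As background, a bulk mammary tumour sample holds transformed epithelium with fibroblasts, vessels and leukocytes, and it can hold the fat, lymph node and body wall muscle that adjoin the gland. Skeletal muscle is built from fast and slow fibres that use separate myosin and troponin genes, adipocytes store lipid in droplets coated by perilipin, and low oxygen switches on glycolytic and angiogenic genes through the HIF factors. The muscle and fat programmes have genes that are used little elsewhere, so their summed level in a tumour can be followed from sample to sample. The same is not claimed for the hypoxia list, which holds glycolytic genes.

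The depth was 20838963 to 28973775 reads per tumour over 19241 genes. Luminal keratins and adhesion genes, the defining markers of the labelled tissue, were high in every tumour: Krt8 lay between 15275 and 47792 normalized counts, Krt18 between 10703 and 26017, and Epcam between 6300.4 and 19139.5, with the lowest value of each in active week 12 replicate 3 for these 3 genes. That tumour stood apart. Its T cell markers, 25 genes averaged on the log2 scale, reached 10.05 against 3.73 to 5.34 in the other 11 tumours. Its B cell markers summed to 50200.7 normalized counts against 402 to 1321 elsewhere, and its adipocyte markers to 630762 against 5389 to 131731. The medians of these cell type lists, and gene differences that move by over 1.5 times without it, are also given without it.

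Across all 19241 genes tested, 2 passed an adjusted p of 0.05 in limma, which is 0.0104% of the genes. Isl1 had a higher effect of activity at week 18 than at week 12 (1 gene, 0.0052%), and Gm16534 had a lower one (1 gene, 0.0052%). At an unadjusted p under 0.05 there were 537 genes with a higher difference (2.79%) and 680 with a lower one (3.53%), and these are counts of unadjusted tests, not of calls. The median difference over all genes was -0.02, with 48.5% of the genes above 0. On the recovered reads, edgeR's quasi-likelihood test passed 0 genes at an adjusted p of 0.05 and 1442 (8.42%) at an unadjusted p under 0.05. limma-voom passed 0, with 1067 (6.23%) at an unadjusted p under 0.05. DESeq2 on the same reads passed 174 genes, 0.918% of those it tested, with 125 higher (0.66%) and 49 lower (0.259%). The number of genes called therefore depended on the tool, and every gene below other than Isl1 and Gm16534 is given by its values and not as changed.

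**Figure D1:**
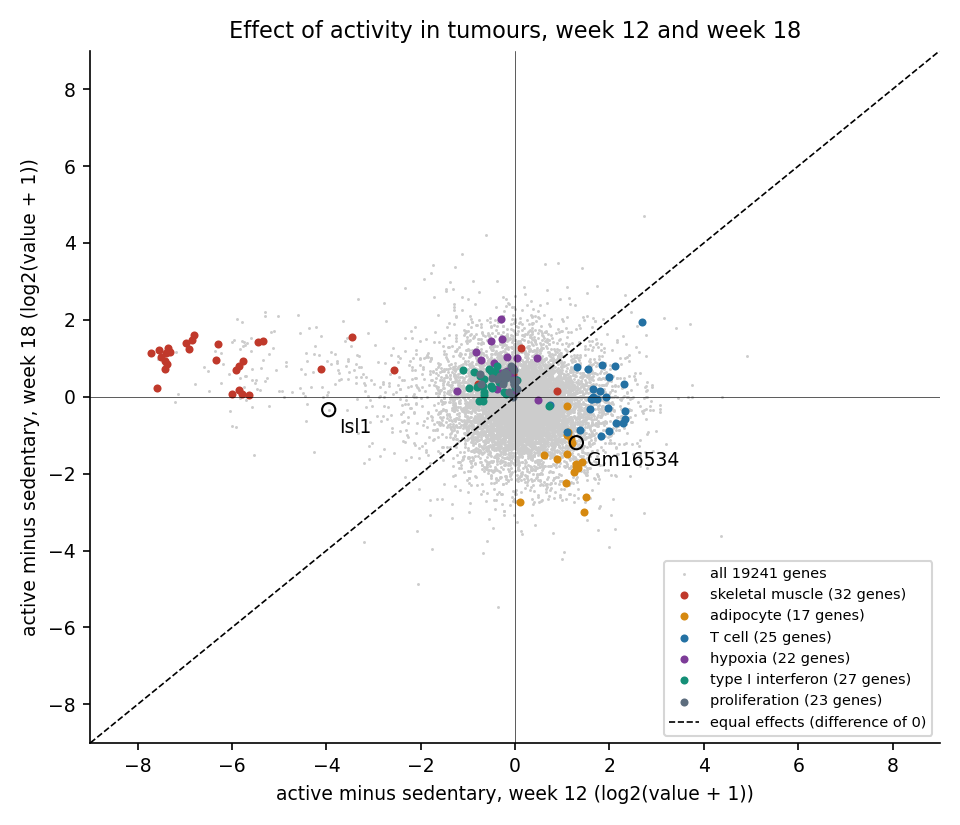
Each point is 1 of 19241 genes, placed by the active minus sedentary difference at week 12 (horizontal) and at week 18 (vertical), both on the log2(normalized count + 1) scale. The dashed line marks equal effects. Most skeletal muscle genes (red) lie far to the left, with medians of -6.14 at week 12 and 0.95 at week 18, and the adipocyte genes (orange) lie to the lower right, with medians of 1.19 and -1.69. The circles mark Isl1 and Gm16534, the 2 genes that passed the test.

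Isl1 encodes a LIM-homeodomain transcription factor known from motor neurons, pancreatic islets and the heart field, and lies on mm10 at chr13:116298281-116309689 on the minus strand. Its normalized counts were 16.8, 14.8 and 12.2 in sedentary tumours at week 12 and 0 in all 3 active tumours of that week. At week 18 they were 0, 1.01 and 0 in sedentary tumours and 0, 0 and 0 in active tumours. The RNA was thus seen in the 3 sedentary week 12 tumours, at 14, 14 and 13 reads, and at 1 read or none in the other 9. The difference of effects was 3.61 (SE 0.36, 95% interval 2.81 to 4.42, limma adjusted p 0.0392, n = 3 per group). The active groups of both weeks had counts of 0 only (SD 0), so they added no spread to this SE. The SE, the interval and the p therefore partly reflect the floor and may understate the spread between tumours. With a floor of 3 reads per library, Isl1 was at least 4.77-fold lower in active than in sedentary tumours at week 12, and both groups were at the floor at week 18. The call was not shared by the count tests, with an adjusted p of 0.56 in DESeq2, 1.0 in edgeR and 0.331 in limma-voom. It also did not outlast the loss of most single tumours: leaving out each in turn, Isl1 kept an adjusted p under 0.05 in limma in 3 of 12 fits, with a difference of 3.45 to 3.95. Skeletal muscle markers moved with it. The 32 muscle genes summed to 95320 to 205742 normalized counts in sedentary tumours at week 12, against 1001 to 2845 in active tumours at week 12, 1036 to 21518 in sedentary tumours at week 18 and 2664 to 28297 in active tumours at week 18. The part of muscle in the Isl1 result was not tested.

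Of the 18 LIM-domain factors and cofactors listed with Isl1, 11 were measured and Isl1 was the 1 that passed. The other 10 had no call, and the median over the 11 was -0.54 (-0.89 to -0.34 with single tumours left out). Lmx1b, which patterns dorsal limb and kidney, had the next smallest p. Its normalized counts were 75.6, 133 and 152 in sedentary and 199, 208 and 327 in active tumours at week 12, then 240.3, 235 and 159 in sedentary and 88.4, 182 and 50.8 in active tumours at week 18. The active tumours were all above the sedentary ones at week 12, and the groups overlapped at week 18. The difference was -2.18 (SE 0.64, limma adjusted p 0.53), opposite in sign to that of Isl1.

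Gm16534 is a processed transcript with no known protein, at chr2:32050086-32064911 on the minus strand, where the annotation also places parts of Nup214, Fam78a and Mir7674. Sedentary tumours had 10.8, 11.6 and 10.3 normalized counts at week 12 and active tumours 30.1, 21.6 and 34.6. At week 18 sedentary tumours had 15.3, 16.2 and 18.8 and active tumours 6.24, 6.12 and 8.02. The groups did not overlap in either week, and their order turned round: active tumours were 2.64-fold the sedentary mean at week 12 and 0.405-fold at week 18. The difference of effects was -2.49 (SE 0.27, 95% interval -3.09 to -1.90, limma adjusted p 0.0392). DESeq2 gave an adjusted p of 0.00593, edgeR 0.246 and limma-voom 0.328, and 3 of 12 fits with 1 tumour left out kept the call in limma. Library kits that mark strand were used, but whether the counting used strand is not given in the sources used here, so reads of Gm16534 and of genes it overlaps cannot be told apart.

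**Figure D2:**
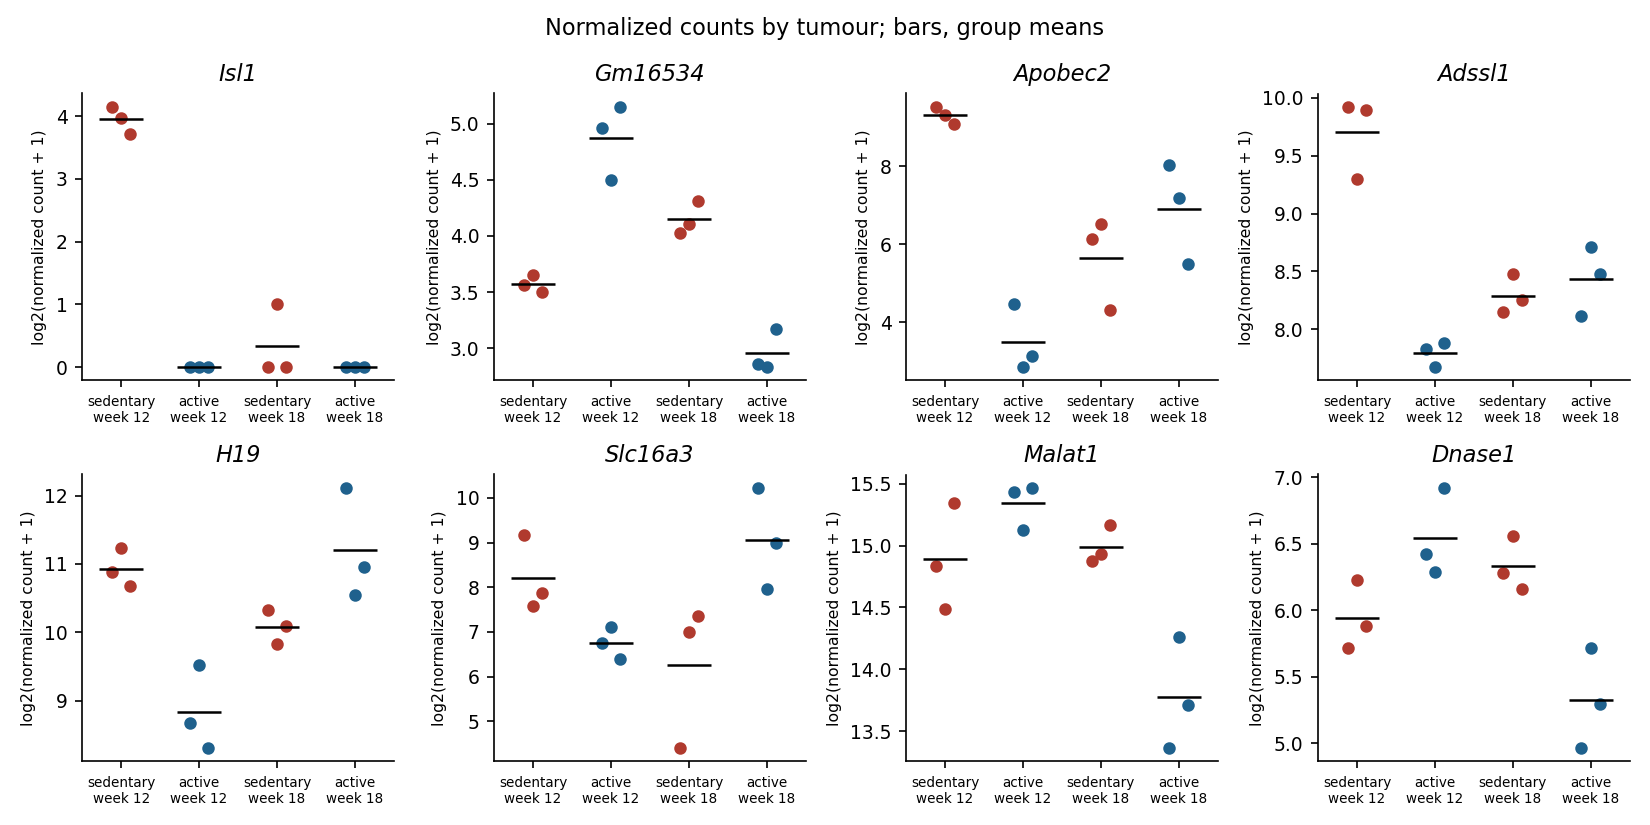
Each dot is 1 tumour (red sedentary, blue active) and each bar a group mean, as log2(normalized count + 1), for 8 genes. Isl1, Apobec2 and Adssl1 are highest in sedentary tumours at week 12. Gm16534, H19 and Slc16a3 have active and sedentary tumours apart in both weeks with the order reversed, and Malat1 and Dnase1 are lowest in active tumours at week 18.

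Skeletal muscle genes had the highest median difference of the 27 gene lists. Of 32 genes, 31 had a difference above 0, with a median of 7.09 against -0.02 over all genes. The medians of the effects were -6.14 at week 12 and 0.95 at week 18. In limma 0 of the 32 passed the adjusted threshold and 28 had an unadjusted p under 0.05 with a higher difference, where 2.79% of all genes did. DESeq2 passed 25 of the 32 with a higher difference, where 0.66% of the genes it tested did, and edgeR passed 0. Leaving out each tumour in turn gave medians of 5.60 to 8.43. The list was picked with earlier results of these samples known and is no independent evidence of its direction.

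Myh4, the myosin heavy chain of the fastest fibres, shows the shape. Its normalized counts were 41654, 15289.7 and 29456 in sedentary and 334, 98.9 and 79.2 in active tumours at week 12. They were 123, 2087 and 1704 in sedentary and 240.3, 2202 and 1323 in active tumours at week 18. Every sedentary tumour of week 12 stood far above every active one, and at week 18 the groups covered the same range. The difference of effects was 7.80 (SE 1.66, limma adjusted p 0.281). Ckm, the muscle creatine kinase, had a difference of 8.55 (SE 1.75, limma adjusted p 0.262). Mylpf, the fast regulatory light chain, had 4608, 2805 and 2988 in sedentary and 54.7, 13.4 and 30.1 in active tumours at week 12. At week 18 it had 31.6, 361 and 196 in sedentary and 78.0, 747 and 827 in active tumours, which overlapped. Its difference was 8.32 (SE 1.51, limma adjusted p 0.206). Casq1, the calcium buffer of the fast sarcoplasmic reticulum, had the smallest p of the list, with a difference of 6.62 (SE 1.16, limma adjusted p 0.206). Pvalb, the calcium-binding protein of fast fibres, had a difference of 8.22.

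The 4 muscle genes without a small unadjusted p were Myh7, Tnni1, Tnnt1 and Tnnc1, which encode the myosin and troponins of slow fibres. They were singled out after their values were seen. Myh7 had 0, 0 and 2.81 normalized counts in sedentary and 2.73, 0 and 5.58 in active tumours at week 12, then 0, 31.4 and 86.2 in sedentary and 3.12, 13.99 and 60.6 in active tumours at week 18. Its difference was -0.75, the 1 muscle gene below 0, and it turned to 0.56 without sedentary week 18 replicate 3. Tnni1 had 9.60, 2.11 and 17.8 in sedentary and 3.64, 17.5 and 5.58 in active tumours at week 12, with a difference of 0.64. Tnnt1 and Tnnc1 had differences of 1.14 and 1.13 (0.32 to 1.93 and 0.24 to 2.10 with single tumours left out), with no value above 20.5 in any tumour. Across these 4 genes no sedentary week 12 tumour exceeded 17.8, while Pvalb stood at 4419, 2577 and 3027 in the same tumours. Whether fast and slow genes differed from each other was not tested.

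Several muscle genes outside the list were among the 6 with the smallest p of a higher difference at a mean of at least 50 normalized counts. Apobec2, a muscle member of the cytidine deaminase family at chr17:48419231-48432930, had 741, 643 and 539 in sedentary and 21.0, 6.18 and 7.81 in active tumours at week 12. At week 18 it had 68.9, 90.1 and 18.8 in sedentary and 263, 144 and 43.7 in active tumours, and those groups overlapped. The difference was 7.09 (SE 1.05, limma adjusted p 0.181, DESeq2 adjusted p 1.71e-08). Adssl1, the muscle adenylosuccinate synthase at chr12:112620045-112641360, had 972, 629 and 954 in sedentary and 227, 203 and 235 in active tumours at week 12. At week 18 it had 282, 355 and 303 in sedentary and 276, 417 and 356 in active tumours. Its difference was 2.05 (SE 0.31, limma adjusted p 0.181), so the sedentary week 12 tumours were the high group here too, on a base that the other 9 tumours shared.

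The other 4 were Trim63, Mlip, Crhr2 and Srl. Trim63, a ubiquitin ligase of muscle atrophy, had a difference of 6.33, and Mlip, which interacts with lamin A in muscle, one of 6.72. Crhr2, a receptor for urocortins, had 4.93, and Srl, the sarcoplasmic reticulum protein sarcalumenin, 2.29. All 4 had a limma adjusted p between 0.181 and 0.206, with sedentary above active tumours at week 12 without overlap and overlapping groups at week 18. Mstn, the secreted inhibitor of muscle growth, had 424, 325 and 376 normalized counts in sedentary and 1.82, 1.03 and 2.23 in active tumours at week 12, at least 123-fold lower against a floor of 3 reads. At week 18 no tumour exceeded 14.2, and the difference was 7.21 (limma adjusted p 0.206). Myod1, the myogenic master regulator, had 26.4, 9.48 and 33.7 in sedentary tumours at week 12 and at most 0.91 in active ones, with a difference of 5.69 (limma adjusted p 0.292).

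The start regions of some genes are shown as examples that hold a motif, and they are no sample of the muscle list. The motif CAGCTG, a form of the E-box that myogenic factors such as MyoD bind, was searched on both strands in the 300 bases around each RefSeq start (250 before, 50 after, GRCm38.p6). It was present in 15 of 29 start regions of 24 muscle-list genes (51.7%) and in 16.3% of all 32851 regions. It overlaps no other motif searched. The motif CTANNNNTAG, part of the MEF2 site, was in 4 of the 29 (13.8%) and in 3.69% of all. The regions of Mylpf (chr7:127211358-127211657, plus strand), Trim63 (chr4:134314870-134315169, plus strand) and Isl1 (chr13:116309639-116309938, minus strand) each hold 1 CAGCTG, in capitals, and none holds CTANNNNTAG. Trim63 and Isl1 are not members of the muscle list. A match describes the letters and is not a measured site, and a role of the motif in Isl1 was not tested.
Mylpf: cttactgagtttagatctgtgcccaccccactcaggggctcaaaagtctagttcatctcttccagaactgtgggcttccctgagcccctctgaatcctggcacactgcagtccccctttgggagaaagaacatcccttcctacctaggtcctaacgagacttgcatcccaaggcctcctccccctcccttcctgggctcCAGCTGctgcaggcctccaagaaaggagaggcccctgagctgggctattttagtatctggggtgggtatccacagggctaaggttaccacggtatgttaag
Trim63: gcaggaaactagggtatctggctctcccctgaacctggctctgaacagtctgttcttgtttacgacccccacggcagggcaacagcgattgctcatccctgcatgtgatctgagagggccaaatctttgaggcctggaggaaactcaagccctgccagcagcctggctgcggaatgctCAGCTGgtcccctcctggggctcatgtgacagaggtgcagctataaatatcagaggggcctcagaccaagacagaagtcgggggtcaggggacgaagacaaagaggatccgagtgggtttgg
Isl1: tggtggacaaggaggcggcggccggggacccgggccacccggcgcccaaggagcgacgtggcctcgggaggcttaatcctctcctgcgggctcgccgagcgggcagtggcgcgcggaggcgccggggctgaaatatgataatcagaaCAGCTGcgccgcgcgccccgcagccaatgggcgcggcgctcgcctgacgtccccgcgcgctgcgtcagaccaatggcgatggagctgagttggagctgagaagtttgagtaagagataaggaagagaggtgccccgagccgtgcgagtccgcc

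Genes whose active and sedentary tumours did not overlap in either week, and stood in opposite order, were counted next. There were 54 genes (0.281% of those tested) with active tumours lower at week 12 and higher at week 18, and 76 (0.395%) the other way. Genes with the same order in both weeks numbered 38 (0.197%) with active higher and 51 (0.265%) with active lower. H19, an imprinted growth-restraining RNA at chr7:142575529-142578143, had 1876, 2417 and 1642 in sedentary and 407, 737 and 316 in active tumours at week 12. It had 1281, 909.7 and 1085 in sedentary and 4440.2, 1487 and 1976 in active tumours at week 18. Active tumours were thus 0.246-fold the sedentary mean at week 12 and 2.41-fold at week 18, a difference of 3.22 (SE 0.60, limma adjusted p 0.208, DESeq2 adjusted p 5.5e-05).

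Slc16a3, the lactate exporter MCT4 of glycolytic cells, at chr11:120948480-120960868, had 578, 189.7 and 233 in sedentary and 107, 137 and 83.6 in active tumours at week 12. It had 20.1, 127 and 162 in sedentary and 1202, 249 and 511 in active tumours at week 18. The difference was 4.27 (SE 1.16, limma adjusted p 0.456), and active week 18 replicate 1 was the highest of the 12 tumours. Camk2a, a calcium-dependent kinase of neurons and muscle, and Kcna7, a potassium channel of muscle and heart, had differences of 5.63 and 3.53 with limma adjusted p of 0.392 for both.

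In the other direction, Pacsin1, an endocytic adaptor, had a difference of -2.68 and 451 normalized counts in active week 12 replicate 3 against 17.7 to 75.6 in the other 11 tumours, and without that tumour the difference was -1.52. H6pd, which supplies NADPH in the endoplasmic reticulum, had 1247, 1104 and 889 in sedentary and 2077, 1262 and 4035 in active tumours at week 12. It had 783, 1472 and 1017 in sedentary and 700.2, 628 and 522 in active tumours at week 18, a difference of -1.82 (SE 0.55, limma adjusted p 0.571). Pcdhga8, a clustered protocadherin that shares exons with its neighbours, and the zinc finger gene Zfp979 had differences of -3.45 and -2.27. Reads of Pcdhga8 cannot be told apart from those of the rest of its cluster.

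Among the 680 genes with a lower difference at an unadjusted p under 0.05, 564 had their lowest mean in active tumours at week 18. Their highest mean was in active tumours at week 12 for 497. Over all 19241 genes these counts were 6504 and 6429. Of the 537 with a higher difference, 411 had their lowest mean in active tumours at week 12, while the highest mean fell in sedentary tumours at week 12 for 289 and in active tumours at week 18 for 247. The effects had opposite signs at the 2 weeks in 608 of the 680 and 503 of the 537, against 56.4% of all genes. Genes picked by their difference are led by its arithmetic to these extreme groups and to opposite signs. The counts therefore describe the picked genes and are no separate evidence.

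Non-coding gene classes made up 257 of the 680 lower genes, or 37.8%, against 8.01% of the 537 higher genes and 13.2% of all genes tested. Transcripts that GENCODE marks as to be experimentally checked, mostly short unspliced models within or beside other genes, made up 16.03% of the lower genes, 0.931% of the higher ones and 3.77% of all. In the tumours themselves this class took 0.0376% to 0.0636% of all normalized counts in active week 18 tumours and 0.0713% to 0.0973% in the other 9, with no overlap. Malat1, the abundant nuclear-retained RNA at chr19:5795690-5802672, had 29190.0, 22982 and 41643 in sedentary and 44241, 35769.5 and 45329.8 in active tumours at week 12. It had 30038, 31225 and 36771 in sedentary and 10549, 19598 and 13443 in active tumours at week 18. The groups overlapped at week 12 and did not at week 18, and the difference was -1.66 (SE 0.38, limma adjusted p 0.313, DESeq2 adjusted p 0.00963). These shares differed by tool, and the tools also tested different genes: 17122 in edgeR and limma-voom and 18948 in DESeq2. The non-coding share of all genes in those smaller sets is not given here, so the tool and the gene set cannot be told apart. Among genes of a lower difference at an unadjusted p under 0.05, non-coding classes made up 18.3% in edgeR, 19.4% in DESeq2 and 25.6% in limma-voom, and transcripts to be checked 6.82%, 7.02% and 10.3%, and among those of a higher difference non-coding classes made up 4.09%, 4.16% and 3.87%. In limma, leaving out each tumour in turn gave non-coding shares of the lower genes from 25.4% to 46.0%. Mitochondrial genes took 1.59% to 2.16% of the counts in active week 18 tumours and 2.00% to 3.91% in the other 9, and the part of RNA quality in these values was not tested.

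**Figure D3:**
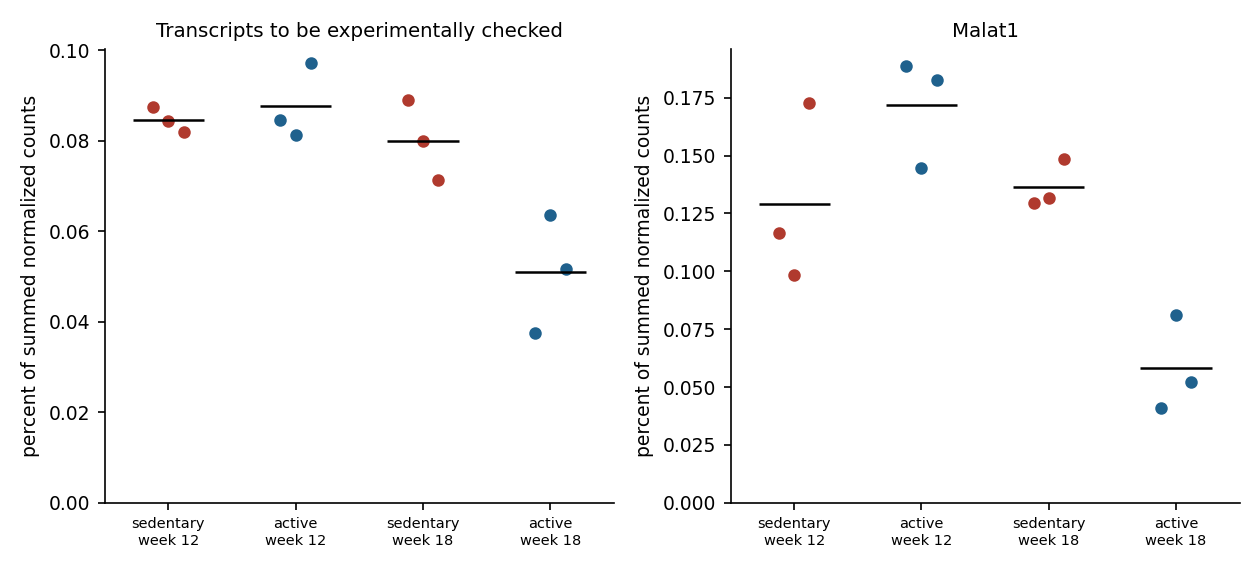
Percent of all normalized counts taken by transcripts to be experimentally checked (left) and by Malat1 (right) in each tumour, with bars at group means (red sedentary, blue active) and axes from 0. The 3 active week 18 tumours are the 3 lowest in both panels.

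Dnase1, Rabep2 and Mamdc4 were, like Malat1, Zfp979 and Pcdhga8, among the 6 named genes with the smallest p of a lower difference. Dnase1, the secreted DNA-digesting enzyme at chr16:4036942-4040024, had 51.6, 73.8 and 58.0 in sedentary and 84.7, 77.3 and 120.4 in active tumours at week 12. It had 76.6, 93.1 and 70.4 in sedentary and 30.2, 51.6 and 38.3 in active tumours at week 18. The groups did not overlap in either week, and the difference was -1.61 (SE 0.35, limma adjusted p 0.292). Rabep2, a Rab effector of endosomes, had a difference of -0.96 (SE 0.19, limma adjusted p 0.246), from 1.33-fold at week 12 to 0.686-fold at week 18 as active over sedentary means. Mamdc4, an endocytosis protein of epithelia, had -1.60 with overlapping groups at week 12. Rabep2 overlaps the muscle gene Atp2a1 in the annotation, and Dnase1 overlaps Trap1.

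Adipocyte genes had the lowest median of all 27 lists. All 17 had a difference below 0, with a median of -2.85 and effects of 1.19 at week 12 and -1.69 at week 18. In limma 0 of 17 passed the threshold and 1, Adrb3, had an unadjusted p under 0.05 with a lower difference, where 3.53% of all genes did. The count tools gave more: 16 of 17 had an unadjusted p under 0.05 with a lower difference in edgeR and in DESeq2, where 8.42% and 10.6% of all genes had one in either direction. After adjustment edgeR passed 0 of 17 and DESeq2 passed 2, where it passed 0.259% of all genes with a lower difference. Those 2 were Pck1, the gluconeogenic enzyme that supplies glycerol for triglyceride (DESeq2 adjusted p 0.00558), and Adrb3 (DESeq2 adjusted p 0.0155). Adrb3, the adrenergic receptor that triggers lipolysis, had 523, 486 and 497 normalized counts in sedentary and 1692, 247 and 6981 in active tumours at week 12. At week 18 it had 22.0, 327 and 249.8 in sedentary and 8.32, 48.1 and 16.9 in active tumours. The difference was -4.13 (SE 1.82, limma adjusted p 0.77) and -2.98 without active week 12 replicate 3, and the groups overlapped in both weeks. Adipoq, the adipokine adiponectin, had 22796 in active week 12 replicate 3 against 34.3 to 4462 in the other 11 tumours, and a difference of -3.05, or -1.85 without that tumour. Plin1, the lipid droplet coat, had a difference of -3.31, or -2.09 without it. Without active week 12 replicate 3 the list median was -1.49, and all 17 genes were still below 0.

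The T cell, B cell and lymph node stroma lists depended on the same tumour. All 25 T cell genes had a difference below 0, with a median of -1.81, and without active week 12 replicate 3 the median was 0.08 with 11 of 25 below 0. Cd3e, a chain of the T cell receptor complex, had 16.8, 36.9 and 29.9 in sedentary and 38.3, 44.3 and 986 in active tumours at week 12, and 8.32 to 36.4 at week 18, a difference of -2.81, or -1.30 without that tumour. B cell genes went from a median of -1.96 to 0.38 without that tumour, with the early B cell factor Ebf1 at -2.20, or -1.26 without it. Lymph node stroma genes went from -1.78 to -0.09, with the lymphotoxin gene Ltb at 3403 there and 30.2 to 94.1 in the other tumours. The 13 measured NK and cytotoxic genes were all below 0, with a median of -1.76. The NK median was -1.06 without active week 18 replicate 1 and -0.97 without active week 12 replicate 3, each with 12 of 13 below 0. MHC class II genes had a median of -0.78 and of -0.25 without it, and the median also moved with other tumours: it was -0.31 without sedentary week 18 replicate 2 and -1.56 without sedentary week 18 replicate 1. H2-Ob, a peptide-loading regulator of B cells, had 3575 in that tumour against 12.5 to 49.6 elsewhere. Plasma cell genes had a median of -1.12, of 0.08 without it and of 0.26 without active week 18 replicate 1. No gene of these 6 lists passed the limma threshold. Prdm1, the plasma cell factor, was the 1 gene with an unadjusted p under 0.05 in limma, at a difference of -1.48. It had 132 normalized counts in active week 12 replicate 3, against 356 and 330 in the other active tumours of week 12. The plasma cell list had its highest sum in that tumour, at 3407, so Prdm1 did not follow its list there. In edgeR 9 of 25 T cell, 5 of 14 B cell, 1 of 13 NK and 2 of 10 MHC class II genes had an unadjusted p under 0.05 with a lower difference. Across all genes 8.42% had one in edgeR in either direction. DESeq2 had 3 of the 6 T cell genes it tested. DESeq2 gave a p for 6 of 25 T cell, 2 of 16 B cell, 3 of 5 plasma cell and 4 of 8 lymph node stroma genes. It gave one for 11 of 13 NK and 7 of 10 MHC class II genes. edgeR tested 4 of 5 plasma cell and 4 of 8 lymph node stroma genes. Genes without a p could not pass. Among those tested, none of the 6 lists had a gene past the adjusted threshold in edgeR or DESeq2, and neither was run without that tumour.

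**Figure D4:**
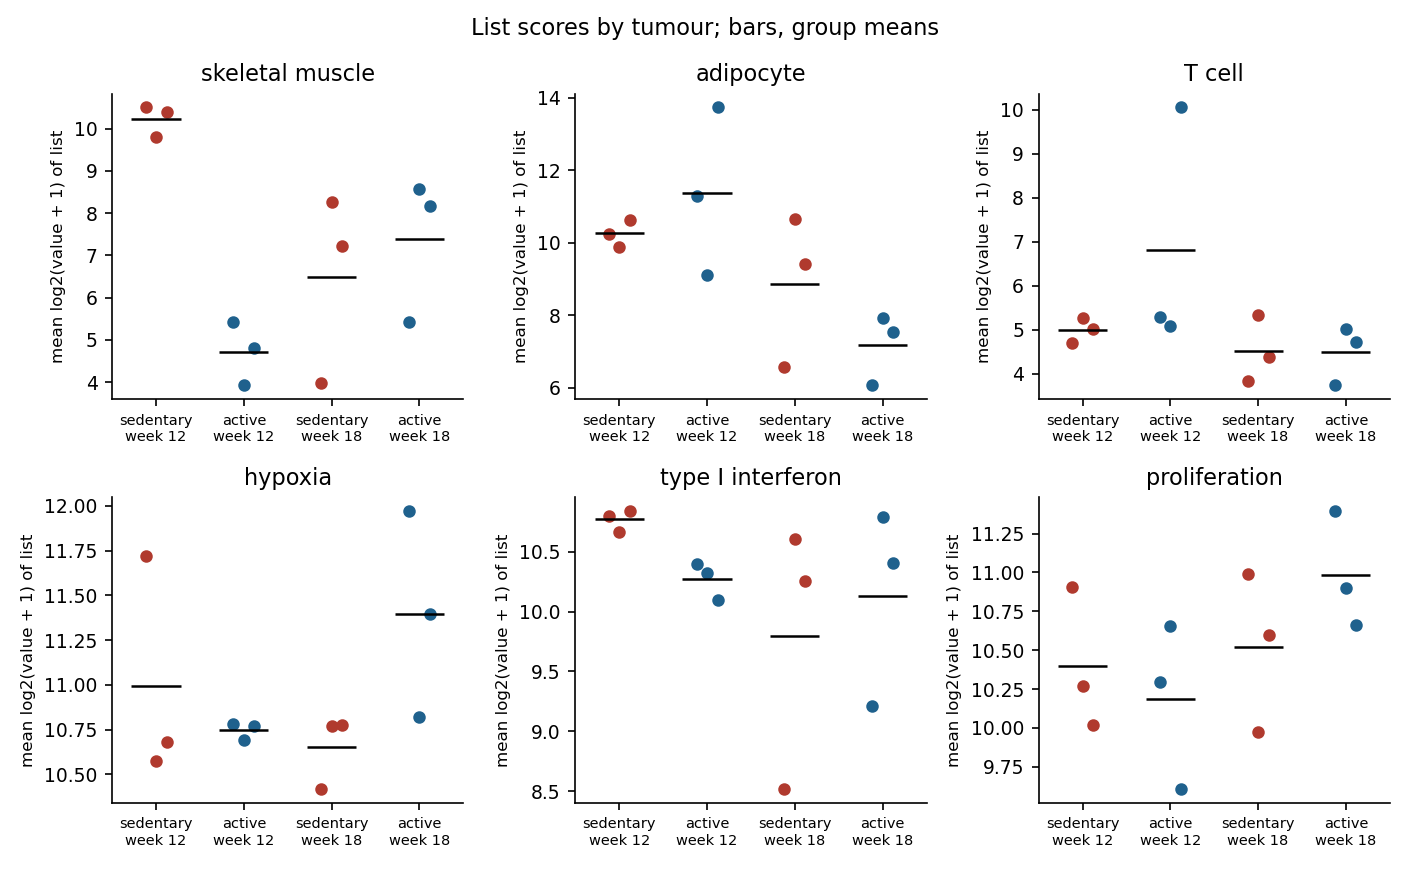
Mean log2(normalized count + 1) over the genes of 6 lists in each tumour (red sedentary, blue active, bars at group means). The muscle score is 9.79 to 10.50 in sedentary week 12 tumours and 3.93 to 8.57 elsewhere, and 1 active week 12 tumour stands at 10.05 in the T cell panel and 13.73 in the adipocyte panel.

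Hypoxia genes leaned above 0. Of 22, 21 had a difference above 0, with a median of 0.85 and effects of -0.23 at week 12 and 0.65 at week 18. None passed the limma threshold, and 3 of 22 had an unadjusted p under 0.05 with a higher difference, where 2.79% of all genes did. Ankrd37, a direct HIF target at chr8:45996902-46005707, had 57.6, 20.02 and 29.0 in sedentary and 19.1, 14.4 and 62.4 in active tumours at week 12, which overlapped. It had 22.0, 30.4 and 33.7 in sedentary and 161, 75.2 and 135 in active tumours at week 18, which did not. The difference was 2.32 (SE 0.79, limma adjusted p 0.664). Leaving out each tumour in turn gave list medians of 0.52 to 1.06. The core letters of the HIF site, ACGTG, were in 19 of 32 start regions of 20 hypoxia genes (59.4%) against 19.6% of all, searched on both strands. The Ankrd37 region, chr8:45999801-46000100 on the minus strand, holds 2, in capitals.
Ankrd37: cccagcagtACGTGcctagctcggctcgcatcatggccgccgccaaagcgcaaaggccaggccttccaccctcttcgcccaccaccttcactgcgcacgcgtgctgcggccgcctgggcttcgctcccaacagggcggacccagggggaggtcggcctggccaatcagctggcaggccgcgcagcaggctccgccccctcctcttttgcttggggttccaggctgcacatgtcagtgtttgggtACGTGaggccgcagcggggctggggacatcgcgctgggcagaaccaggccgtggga

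Interferon-stimulated genes had a median difference of 0.96, with 26 of 27 above 0 and effects of -0.51 at week 12 and 0.29 at week 18. None passed the limma threshold and 2 of 27 had an unadjusted p under 0.05 with a higher difference, where 2.79% of all genes did. Bst2, the tetherin that holds budding virus at the cell surface, had 3506, 3130.0 and 2946 in sedentary and 2219, 2225 and 2288 in active tumours at week 12. It had 1049, 2806 and 2015 in sedentary and 2524, 3100.0 and 3139 in active tumours at week 18. The sedentary tumours were all higher at week 12 and the groups overlapped at week 18, with a difference of 1.19 (SE 0.43, limma adjusted p 0.701). Isg15, a ubiquitin-like modifier, had a difference of 1.79 (SE 0.67, limma adjusted p 0.731). Without sedentary week 18 replicate 1, the tumour with the lowest interferon score, the list median was 0.31. The repeat GAAANNGAAA of interferon-responsive elements was in 10 of 18 start regions of 17 interferon genes (55.6%) and in 3.44% of all, searched on both strands. The Bst2 region, chr8:71537423-71537722 on the minus strand, holds 2 that overlap each other, in capitals.
Bst2: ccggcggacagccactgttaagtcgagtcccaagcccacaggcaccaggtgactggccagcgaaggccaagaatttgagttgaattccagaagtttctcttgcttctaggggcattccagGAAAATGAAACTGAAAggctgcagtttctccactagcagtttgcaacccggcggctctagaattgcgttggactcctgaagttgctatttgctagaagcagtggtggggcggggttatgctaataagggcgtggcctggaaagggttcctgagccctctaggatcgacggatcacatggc

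The 23 proliferation genes all had a difference above 0, with a median of 0.76. None passed the limma threshold, and 0 had an unadjusted p under 0.05. Rrm2, a subunit of ribonucleotide reductase, had 1586, 1313 and 2333 in sedentary and 3113, 3292 and 2572 in active tumours at week 18, without overlap, and overlapping groups at week 12. Its difference was 0.89 (SE 0.44, limma adjusted p 0.77), or 0.59 without active week 12 replicate 3. Without that tumour the list median was 0.40. Luminal epithelial genes had a median of 0.52, with 8 of 8 above 0, and of 0.27 without that tumour, in which Cldn7, a tight junction claudin, had 957 against 2919 to 4537 elsewhere.

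Stromal lists leaned below 0. Of 17 fibroblast and matrix genes 16 were below 0, with a median of -0.59, of -0.36 without active week 12 replicate 3, and of -0.95 to -0.28 over all fits with 1 tumour left out. Pdgfra, the growth factor receptor of fibroblasts, had 825, 1755 and 1156 in sedentary and 1727, 1115 and 2770.0 in active tumours at week 12, then 732, 1231 and 963 in sedentary and 229, 511 and 486 in active tumours at week 18. Its difference was -1.87 (SE 0.62, limma adjusted p 0.654), with no overlap at week 18. Of 14 endothelial genes 13 were below 0, with a median of -0.98 and of -0.44 without active week 12 replicate 3. Cdh5, the cadherin of endothelial junctions, had 4299.9 in that tumour against 671 to 1679 elsewhere, and a difference of -1.07, or -0.58 without it. Hormone-responsive luminal genes had a median of -0.94 and of -0.01 without that tumour, and Prlr, the prolactin receptor, a difference of -0.94, or -0.55 without it.

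**Figure D5:**
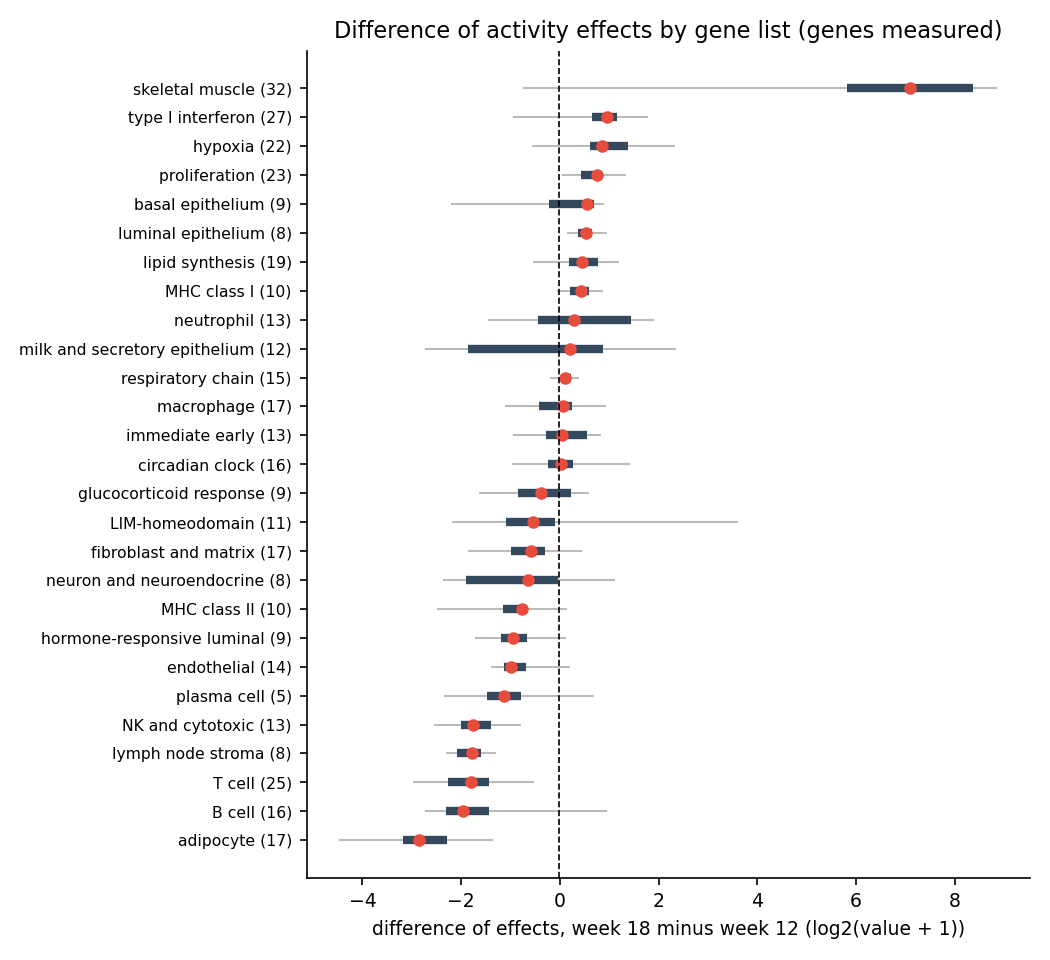
Median difference of effects (red dot), middle range from lower to upper quartile (dark bar) and full range (grey line) for the genes of 27 lists, with the number measured in brackets. The dashed line is the median over all 19241 genes, -0.02. Skeletal muscle stands at 7.09 at the top and adipocyte at -2.85 at the bottom.

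The remaining lists lay near the median of all genes or had genes on both sides of it. Macrophage genes had a median of 0.06, with Mertk, a receptor for dying cells, at -0.75, or -0.31 without active week 12 replicate 3. Neutrophil genes had a median of 0.28. S100a8, a calprotectin subunit, had 11.5, 45.5 and 46.6 in sedentary and 79.1, 90.0 and 197 in active tumours at week 18, with a difference of 1.76 (1.12 to 2.32 with single tumours left out). MHC class I genes had 0.43, with the immunoproteasome subunit Psmb8 at 0.88. Their median was 0.15 without sedentary week 18 replicate 1 and 0.73 without active week 12 replicate 3. Lipid synthesis genes had 0.44 (0.26 to 0.61 with single tumours left out), with the sterol demethylase Cyp51 at 1.19 (0.68 to 1.59). Respiratory chain genes had 0.10, with quartiles of 0.04 and 0.22, and Cox5a, of complex IV, at 0.38 (0.21 to 0.54 with single tumours left out). Circadian clock and immediate early genes had 0.03 each, with Bhlhe40, a clock repressor, at 1.43 (0.91 to 1.81) and the AP-1 gene Jun at 0.59 (0.37 to 0.85). Glucocorticoid-response genes had -0.38 (-0.68 to -0.25 with single tumours left out), with Per1, which is also a clock gene, at -0.97. Basal epithelial genes had 0.56 with the stem cell receptor Lgr5 at -2.20, milk genes 0.21 with the casein Csn1s2a at -2.73, or -1.52 without active week 12 replicate 3, in which it had 1343 against 6.24 to 305 elsewhere, and neuronal genes -0.64 with the vesicle protein Syp at -2.36. The medians of the macrophage, neutrophil, milk, basal, clock, immediate early and neuronal lists changed sign when single tumours were left out. In all, 1 of the 397 measured genes of the 27 lists passed the limma threshold.

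Hoxc10, a posterior homeobox gene of caudal body wall and hindlimb, was singled out with Hoxa10 and Hoxd10 after their values were seen. Hoxc10 had 2.40, 4.22 and 3.74 normalized counts in sedentary and 115, 55.6 and 351 in active tumours at week 12, a gap that all 3 active tumours showed. At week 18 it had 0 in all 3 sedentary tumours and 1.04, 3.497 and 0 in active tumours. The difference was -3.85 (SE 0.94, limma adjusted p 0.354), so it did not pass. Hoxa10 had 100.2, 12.4 and 129 in active tumours at week 12 and 0 to 17.5 in the other 9, so replicate 2 lay within that range. Hoxd10 had 29.0 in active week 12 replicate 3 and at most 5.47 in the other 11.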

How the data were processed

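RNA of 12 mammary tumours, extracted with TRIzol and sequenced from a stranded mRNA kit per the labels' protocols, was analysed. The 2 tables the authors deposited hold a normalized signal per gene and tumour, which are gene counts divided by 1 factor per library. Dividing by the step of each column gave whole reads for 100% of values (tolerance 0.01), 20838963 to 28973775 per tumour, and the factors were those of median-of-ratios scaling over all 12 tumours, so both tables share 1 scale. The build was mm10 per the submitters' processing notes. The aligner, the counter and its use of strand are not given in the sources used here. The authors' fold changes and p-values were not used.

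The tables were joined on symbol (19241 genes in both; each has at least 10 reads in some tumour). limma 3.58.1 in R 4.3.3 (lmFit, eBayes, without trend) was fitted to log2(value + 1) with 1 mean per group, for genes whose mean reached 1 in any group, and the contrast was adjusted by Benjamini-Hochberg (threshold 0.05). Alternatives were edgeR 4.0.16, DESeq2 1.42.0 and limma-voom on recovered reads, other scalings, pseudocounts and filters, a replicate block, and each tumour left out. The procedure was tested on simulated data. Floors of 3 reads cover counting error only, and reads carried no molecular identifiers. p-values measure the spread between these samples.

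Named genes were all calls, the 6 of smallest p and the 4 largest order reversals in each direction (mean of at least 50, gene models passed over), and the smallest p in each list with up to 3 other defining members. Genes outside this rule are said to be so or are the muscle genes Pvalb, Mstn and Myod1, named after their values were seen. Members and lists were chosen with earlier results of these data known. Positions and classes are from GENCODE for mm10, with 18870 of 19241 symbols matched. Start regions are from RefSeq (GRCm38.p6), with 13225 symbols matched.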

Additional observations from a re-analysis of the deposited data

Results flagged for a closer look

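In limma the effect of activity differed between weeks, by a test of the difference itself, for 2 genes. The difference was 3.61 for Isl1 and -2.49 for Gm16534 on the log2 scale, each with a limma adjusted p of 0.0392. Neither passed in edgeR or limma-voom, and DESeq2 passed Gm16534 only. Each kept its limma call in 3 of 12 fits with 1 tumour left out. Isl1 was at the floor of 3 reads in both groups at week 18, so its difference rests on week 12. Its counts of 0 in both active groups added no spread, so its limma p may understate the spread between tumours. Isl1 stood at 14.6 ± 2.32 normalized counts (SD, n = 3) in sedentary week 12 tumours and at 0 in both active groups. It was also near 0 in sedentary week 18 tumours, at 0.337 ± 0.584 (SD, n = 3). Gm16534 stood at 10.9 ± 0.66 in sedentary and 28.8 ± 6.57 in active week 12 tumours, and at 16.8 ± 1.83 in sedentary and 6.79 ± 1.06 in active week 18 tumours (SD, n = 3).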

How the results depend on the processing

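The count of 2 calls (1 higher, 1 lower) was 174 in DESeq2 (125 higher, 49 lower) and 0 (0 higher, 0 lower) in edgeR, in limma-voom and with trend and robust eBayes. Unadjusted p under 0.05 numbered 1442, 1067 and 1268 in those 3. It was 2 (0 higher, 2 lower) with a pseudocount of 0.1 and 3 (3 higher, 0 lower) with 10. Of the main calls, 1 (Gm16534) was kept with 0.1 and 0 with 10, so Isl1 was lost with both. With TMM scaling and with a mean of at least 10 both genes were kept. Median-of-ratios scaling and no filter only repeated the main fit, because the deposited scale was the same and all 19241 genes passed the filter. A threshold of 0.1 could not lose a call, and it added none. These settings are therefore no check of the calls. Leaving out each tumour in turn gave 0 to 23 calls, 0 to 22 of them higher and 0 to 3 lower. There were 23 without active week 18 replicate 1, 5 without active week 12 replicate 3, 3 without active week 12 replicate 2, 1 without sedentary week 18 replicate 2 and 0 without each of the other 8. With the replicate number as a block, 69 passed (67 higher, 2 lower), among them both genes and 20 of the muscle list. Same-numbered tumours correlated at -0.03, -0.10 and 0.09 at week 12, and at 0.16, 0.16 and 0.14 at week 18, where each exceeded all pairs of unlike numbers (-0.15 to 0.04). The week 18 values hint at pairing and the week 12 values do not, and the labels state none, so the fit without the block was kept. The causes of these moves were not tested.

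Of 1483 values for 62 genes over the alternatives, 1415 kept direction and side of the threshold, 28 lost and 37 gained the threshold, and 3 turned in sign: Tnni1 to -0.12 without sedentary week 18 replicate 1, and Myh7 to 0.56 without sedentary week 18 replicate 3 and 0.21 without active week 18 replicate 1. Only Isl1 and Gm16534 of the 62 genes passed in the main fit, so keeping the side mostly meant staying uncalled. Settings that repeated the main fit are among those counted. With single tumours left out Tnni1 ran from -0.12 to 1.37 and Myh7 from -2.66 to 0.56. List medians turned in sign in 30 of 621 values, over 10 lists; muscle, adipocyte, hypoxia, interferon and proliferation were not among them. Genes near the floor of 3 reads, Isl1 included, are limited by depth.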
